A study of Mus musculus with 32 samples.

Results

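Cyclic nucleotide phosphodiesterases end cAMP and cGMP signals by cleaving cAMP, cGMP or both. The genes described here are Pde2a, Pde3b, Pde4a, Pde4b, Pde4d, Pde7a and Pde8a, 7 genes read by 17 of the 55681 probes of a mouse Agilent array on 32 samples. Members were chosen by the gene name of the probe, and the group was chosen because Pde2a and Pde4a were higher under the BTK inhibitor PCI-32765, so the drug arrays describe them and do not test them.

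In background terms, adenylyl cyclases make cAMP when receptors coupled to the G protein Gs are engaged, cAMP activates protein kinase A (PKA) and the exchange factor EPAC, and phosphodiesterases set how long and where the signal lasts. In lymphocytes cAMP restrains antigen receptor signalling and growth. PDE4 enzymes, the targets of rolipram, carry much of the cAMP hydrolysis of leukocytes. PDE2A cleaves cAMP and cGMP and is stimulated by cGMP, PDE3B is inhibited by cGMP, and PDE7A and PDE8A are cAMP-specific enzymes that rolipram does not block.

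The tested samples were 9 lymphoma cell lines (12 arrays) from spleens of ATMKO.CD3epsilonKO mice, in which both Atm, a gene of the response to DNA breaks, and the CD3 epsilon gene of the T cell receptor complex are deleted. They were set against germinal centre (GC) B cells of ATMWT mice immunised with SRBC (sheep red blood cells; 3 arrays, 1 averaged sample), splenic B cells stimulated with anti-IgM at 15 ug/ml, which binds the B cell receptor (ATMKO.CD3epsilonKO cells for 3, 6 and 24 h and ATMWT.CD3epsilonKO cells for 6 h, 4 samples), and untreated splenic B cells of both genotypes (2 samples). All 24 arrays carried the sample in Cy5 and 1 common RNA pool of all these cell types in Cy3. On 8 more arrays, lymphoma lines 178119 and 28545, also ATMKO.CD3epsilonKO and not among the 9 lines by label, were treated with 100 nM PCI-32765 (Cy5) or DMSO (Cy3) for 1, 3, 6 or 24 h. The lymphomas are established lines and the normal cells are primary, the GC cells come from mice with CD3 epsilon, and no dye was swapped. Growth as a line cannot be told apart from tumour state, and against GC cells neither can genotype. Nothing says how many animals gave each splenic sample, and p-values measure the spread between these samples. In bulk RNA, fewer cells of a type and less RNA per cell cannot be told apart.

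Of the pool arrays, 2 stood apart before any comparison, the first GC array (slide 2) and the first array of line 1039 (slide 3). The Cy3 channel holds the same RNA on all 24 arrays, and its median correlation with the other arrays was 0.05 for the first GC array and 0.45 for the first array of line 1039, against 0.97 to 0.99 for the rest. The log ratios of the first GC array correlated with the others at 0.06 and 0.07, while the other 2 correlated at 0.96 with each other. Repeat arrays other than these 2 differed for the members by 0.02 to 0.64 on the log2 scale (median 0.16, 5 samples). Where a member's result changes without either array, the value without it is given too. Atm read -1.54 to -0.51 in lymphoma lines and -0.98 to -0.34 in ATMKO splenic cells, against 0.42 to 0.65 in the 3 ATMWT samples, whereas Cd3e ran against its label (-0.64 to 1.15 in the lines, -1.84 in GC cells, whose strain label names no CD3 epsilon deletion), and the place of its probe relative to the deletion was not examined.

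Probes of 4 genes are shown by their first 30 bases of 60, 5′ to 3′, as the scanner files give them, with positions on mm9 (plus strand). Pde2a and Pde8a had the largest differences from splenic cells, Pde4a was the other gene for which the group was chosen, and the Pde4b probes differed in GC cells. Probes of 1 gene share its RNA and the array.
Pde2a A_55_P2105542, chr7:108661268-108661327: ctgttgtgtgtggtcccgtgggctgagtgc
Pde4a A_55_P2029191, chr9:21017591-21017650: ttgatcaattggtccgtcgattgacaatca
Pde4a A_55_P2029187, chr9:21015961-21016020: ttgaagtggggtatggagagccaggaactg
Pde4b A_65_P01319, chr4:102279393-102279452: aaataaacaacactacatttgatcacagat
Pde4b A_52_P423247, chr4:102277888-102277947: ctggaagagactgacatagacattgcaaca
Pde8a A_55_P2106351, chr7:88479261-88479320: catggggtatttgagtctagaaatataaag

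Promoters are shown because the genes answer to and control cAMP, whose classical DNA element is the CRE, TGACGTCA. RefSeq windows on GRCm38.p6, 250 bases before to 50 after a gene start, were given for 5 of the 7 genes (14 windows, since Pde2a, Pde4a and Pde4b have several starts). None of the 14 windows held the full TGACGTCA, which 1.8% of all 32851 windows hold. Its shorter core TGACG, or CGTCA on the other strand, which the full site also contains, stood in 4 of the 14 windows, against 20.8% of all windows. These 4 belong to 4 genes, Pde2a, Pde4a, Pde4b and Pde8a, and are printed on the plus strand with the core in capitals. A match of 5 letters is a description and not a binding site, and at this share some are found in any group of windows.
Pde2a chr7:101450270-101450569: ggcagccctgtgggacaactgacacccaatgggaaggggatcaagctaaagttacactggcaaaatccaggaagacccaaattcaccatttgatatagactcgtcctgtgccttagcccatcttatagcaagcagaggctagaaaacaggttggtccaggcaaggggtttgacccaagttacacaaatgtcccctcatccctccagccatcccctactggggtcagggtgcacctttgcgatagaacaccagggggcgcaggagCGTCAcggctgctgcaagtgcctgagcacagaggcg
Pde4a chr9:21183851-21184150: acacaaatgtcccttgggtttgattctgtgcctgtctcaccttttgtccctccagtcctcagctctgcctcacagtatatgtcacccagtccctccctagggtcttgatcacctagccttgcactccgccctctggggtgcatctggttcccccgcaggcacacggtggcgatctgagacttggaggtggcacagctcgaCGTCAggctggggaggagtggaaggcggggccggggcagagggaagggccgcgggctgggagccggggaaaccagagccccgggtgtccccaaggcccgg
Pde4b chr4:102421305-102421604: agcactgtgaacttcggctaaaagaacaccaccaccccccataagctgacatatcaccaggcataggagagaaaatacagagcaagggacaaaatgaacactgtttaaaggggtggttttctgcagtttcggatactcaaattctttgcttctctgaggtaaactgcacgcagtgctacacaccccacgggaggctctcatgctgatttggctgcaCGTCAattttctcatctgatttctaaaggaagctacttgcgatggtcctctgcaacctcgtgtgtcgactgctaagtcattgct
Pde8a chr7:81213015-81213314: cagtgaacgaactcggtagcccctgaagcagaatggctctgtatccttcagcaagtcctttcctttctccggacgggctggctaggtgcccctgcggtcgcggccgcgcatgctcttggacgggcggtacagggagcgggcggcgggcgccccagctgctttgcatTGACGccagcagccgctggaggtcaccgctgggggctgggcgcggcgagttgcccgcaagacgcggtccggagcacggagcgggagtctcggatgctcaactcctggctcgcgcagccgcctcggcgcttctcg

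**Figure D1:**
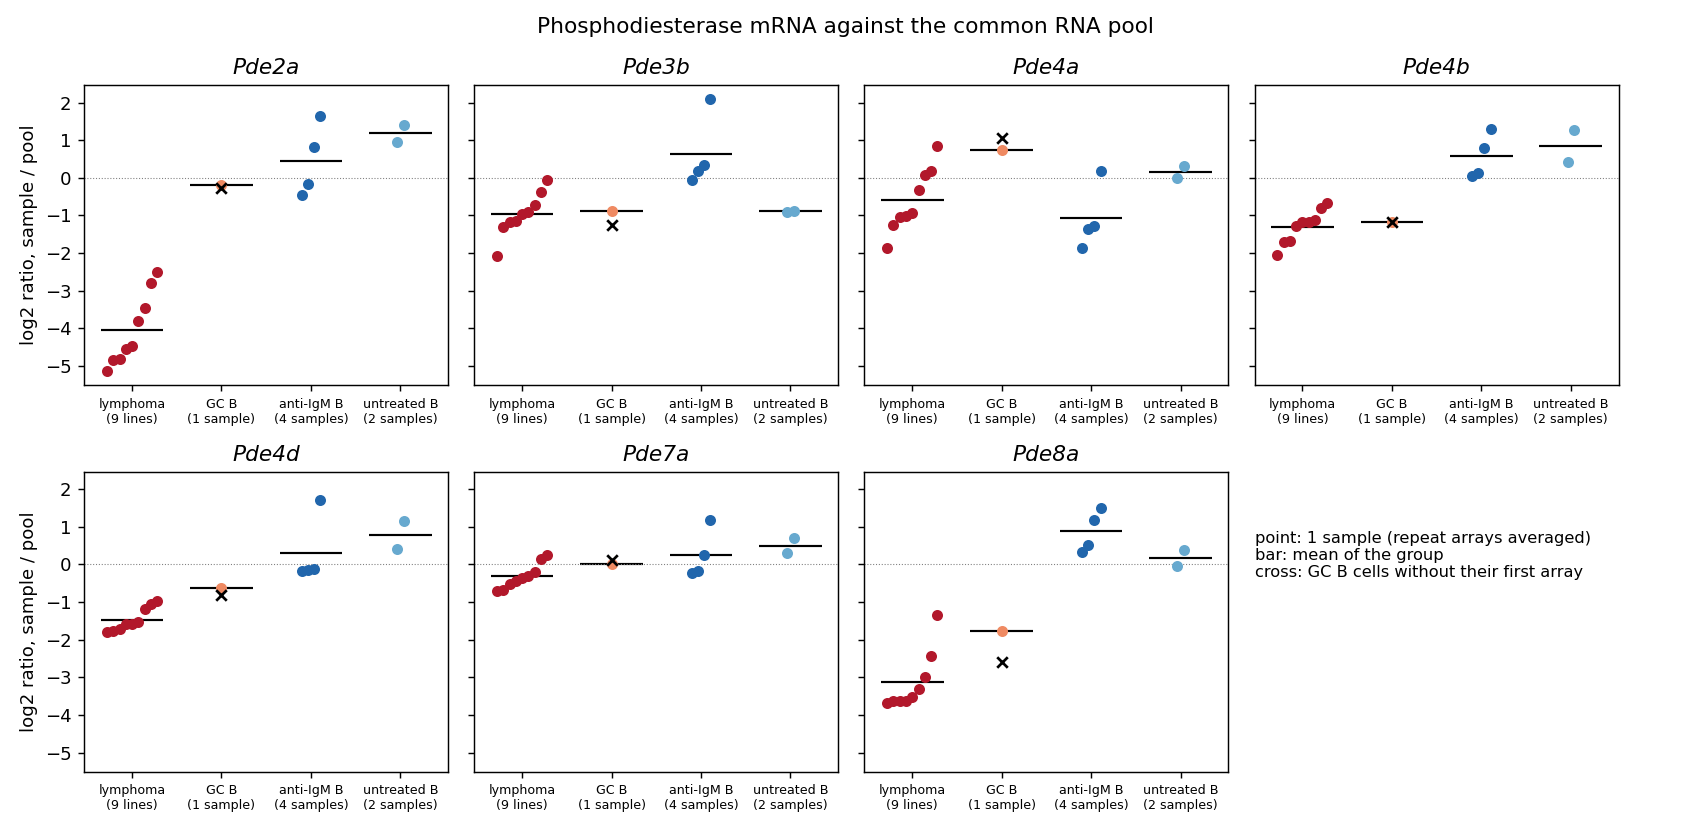
Log2 ratio of each sample to the common pool (vertical axis) for the brightest probe of each gene, by group (horizontal axis). Points are samples, bars are group means and crosses are GC B cells without their first array. For Pde2a the highest lymphoma line (-2.51) lies below the GC sample (-0.20), and for Pde4b and Pde4d every line lies below every splenic sample.

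Pde2a mRNA was far lower in the lymphoma lines than in every normal B cell sample. Values are log2 ratios to the pool. The 9 lines read a lowest value of -5.15, a median of -4.48 and a highest of -2.51, with a mean of -4.05 ± 0.95 (SD, n = 9). GC B cells read -0.20 (-0.27 without their first array). Stimulated ATMKO cells read 1.64 at 3 h, -0.45 at 6 h and 0.81 at 24 h, stimulated ATMWT cells -0.17 at 6 h, and untreated cells read 0.96 (ATMKO) and 1.40 (ATMWT). No line overlapped any normal sample, and the probe was above background on 12 of 12 lymphoma arrays. The difference was -5.23 ± 0.66 (SE) against untreated cells (37.5-fold lower, limma adjusted p = 2.78e-05), -4.50 ± 0.50 against anti-IgM cells (adjusted p = 5.66e-06) and -3.85 ± 0.88 against GC cells (adjusted p = 0.0133, and 0.00651 without both arrays that stood apart). GC cells are 1 averaged sample with no spread of its own here, so every test against them uses the spread of the other groups and assumes that the lone sample varies like those. Within slides 2, 3 and 4 the difference from untreated cells was -5.65, -4.67 and -5.07, and it missed the test on slide 3 (adjusted p = 0.112). Within slide 4, which holds the GC arrays that did not stand apart, Pde2a differed from GC cells by -3.80 (adjusted p = 0.0713).

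Pde8a, the high-affinity cAMP enzyme, was the other member with a large deficit in the lines. The lines read -3.68 at the lowest, -3.54 at the median and -1.34 at the highest, the highest being line 1039, whose second array alone read -2.84. GC cells read -1.77, and -2.60 without their first array. Stimulated ATMKO cells read 1.5 at 3 h, 0.51 at 6 h and 1.17 at 24 h, stimulated ATMWT cells 0.34 at 6 h, and untreated cells 0.39 (ATMKO) and -0.04 (ATMWT). All 9 lines lay below all 6 splenic samples, and the bright probe was above background on 5 of 12 lymphoma arrays and 9 of 9 splenic arrays. Pde8a was lower by -3.31 ± 0.51 (SE) than in untreated cells (limma adjusted p = 0.000152) and by -4.01 ± 0.39 than in anti-IgM cells (adjusted p = 1.53e-06). With the processed signals of the scanner software in place of normexp these differences were -4.97 (adjusted p = 0.000185) and -5.80 (adjusted p = 2.22e-06), so the size depends on how signals near background are handled. Within slides the first of these differences was -3.55, -2.82 and -3.64, and on slide 3 the adjusted p was 0.283. The second probe, A_66_P122883, was above background on 0 of 12 lymphoma arrays and 9 of 9 splenic arrays, so that its level in lymphoma has only an upper bound. By the Cy5 channel alone lymphoma was at least 1.46-fold below untreated cells and at least 2.09-fold below anti-IgM cells, bounds that are open to dye bias. They set the bright group's mean against the higher of the probe's own signal and the lowest signal above background on each dim array. By the ratio to the pool, on which the test was run, this probe differed by -0.54 (limma adjusted p = 0.0162, every probe tested) and -1.02 (adjusted p = 1.03e-05).

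Pde8a in lymphoma against GC cells depended on the arrays used. The fits below that passed kept the first GC array, which stood apart, and without that array alone the difference was -0.53. The difference was -1.36 ± 0.68 (SE, limma adjusted p = 0.245) with all arrays, -0.69 (adjusted p = 0.356) without both arrays that stood apart, and it passed the test without the first array of line 1039 (-1.52, adjusted p = 0.0448) or without that line (-1.58, adjusted p = 0.0395). The second probe was above background on 0 of 12 lymphoma arrays and 1 of 3 GC arrays, the first, which stood apart. Its difference from GC cells, -0.0058, did not pass and cannot tell whether this probe matches the bright one.

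Of the 3 PDE4 genes, Pde4b and Pde4d were lower in the lines and Pde4a was not. Pde4b, the main inflammatory PDE4 of leukocytes, read -2.06 at the lowest, -1.18 at the median and -0.68 at the highest in the 9 lines, the highest being line 1039, whose second array alone read -1.30. GC cells read -1.17 (2 arrays, since the first gave no value). Values in stimulated ATMKO cells were 1.30 at 3 h, 0.06 at 6 h and 0.80 at 24 h, and in stimulated ATMWT cells 0.12 at 6 h. Untreated cells read 1.26 (ATMKO) and 0.41 (ATMWT). By this probe the lines and the GC sample were low together, and all splenic samples lay above them. Pde4b was lower by -2.14 ± 0.37 (SE) than in untreated cells (limma adjusted p = 0.00037) and by -1.87 ± 0.28 than in anti-IgM cells (adjusted p = 8.4e-05), and differed by -0.12 ± 0.49 from GC cells (adjusted p = 0.919). Within slides 3 and 4, each with a lone untreated sample, the difference from untreated cells was -2.47 and -2.62, and it did not pass on slide 3. On slide 2 lines 1001, 1004, 1007 and 1010 read -1.20, -1.12, -1.28 and -1.67, against 0.41 in untreated ATMWT cells. The GC array of slide 2 gave no value, so this probe was not fitted within that slide.

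The 3 Pde4b probes tested were lower or read lower against untreated cells, by different amounts. A_52_P423247 gave -1.84 ± 0.36 (SE, limma adjusted p = 0.00119, every probe tested), whereas A_55_P2107542, the most upstream of these 3, gave -1.03 ± 0.47 (adjusted p = 0.105). Against anti-IgM cells A_52_P423247 gave -1.42 ± 0.28 (adjusted p = 0.000778), but A_55_P2107542 gave -0.15 ± 0.36 and did not pass (adjusted p = 0.756). By A_55_P2107542 the lines (-1.10 to 0.28) overlapped the stimulated samples (-0.80 to 1.29). In GC cells A_52_P423247 read -0.06 (-0.16 without their first array), above all 9 lines (-1.72 to -0.53), so the probes differ on where GC cells stand. Across the 16 samples A_65_P01319 correlated at r = 0.95 with A_52_P423247 and at 0.61 with A_55_P2107542. The fourth, A_52_P149801, was above background on 0 of 24 pool arrays in Cy3 and was not tested.

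Pde4d, which beta-arrestin brings to receptors, read -1.80 at the lowest, -1.59 at the median and -0.98 at the highest in the lines. The highest was again line 1039, whose second array alone read -2.01, below all other lines. GC cells read -0.63 (-0.82 without their first array). In ATMKO cells given anti-IgM it stood at 1.72 at 3 h, -0.12 at 6 h and -0.15 at 24 h, in ATMWT cells at -0.18 at 6 h, and in untreated cells at 1.15 (ATMKO) and 0.40 (ATMWT). Every line lay below every splenic sample, and the probe was above background on 7 of 12 lymphoma arrays. The difference from GC cells, -0.84 ± 0.54 (SE), did not pass the test (limma adjusted p = 0.378). Pde4d was lower by -2.24 ± 0.40 (SE) than in untreated cells (limma adjusted p = 0.000534) and by -1.79 ± 0.31 than in anti-IgM cells (adjusted p = 0.00028). With the processed signals of the scanner software they were -3.64 (adjusted p = 0.00023) and -3.07 (adjusted p = 6.36e-05). A second probe, A_65_P12530, gave -1.90 ± 0.34 against untreated cells (adjusted p = 0.000586, every probe tested), but was above background on 1 of 12 lymphoma arrays, so its size is poorly measured. Within slides 2, 3 and 4 Pde4d differed from untreated cells by -2.03, -1.94 and -3.12, missing the test on slide 3 (adjusted p = 0.217). The other 2 Pde4d probes lie upstream in the gene, were above background on 0 of 12 lymphoma arrays and were not tested.

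Pde4a, a widely expressed PDE4, varied more among the lines than between groups. The lines read -1.88 at the lowest (line 1036), -0.95 at the median and 0.83 at the highest (line 1010), with a mean of -0.60 ± 0.84 (SD, n = 9). GC cells read 0.75 (1.06 without their first array). Stimulated ATMKO cells read -1.86 at 3 h, -1.28 at 6 h and 0.19 at 24 h, stimulated ATMWT cells -1.37 at 6 h, and untreated cells 0.0006 (ATMKO) and 0.32 (ATMWT). The lines spanned the values of every splenic sample. The difference was -0.76 ± 0.59 (SE) against untreated cells, 0.49 ± 0.45 against anti-IgM cells and -1.35 ± 0.80 against GC cells, and none passed the test (limma adjusted p = 0.346, 0.407 and 0.332). The second probe, A_55_P2029187, correlated with the first at r = 0.98 across the 16 samples and gave -0.60 ± 0.48 against untreated cells.

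Pde3b, the cGMP-inhibited enzyme known from insulin action in fat cells, was lower in the lines than in stimulated cells. The lines read -2.07 at the lowest, -0.98 at the median and -0.05 at the highest, and GC cells -0.89 (-1.26 without their first array). Stimulated ATMKO cells read 2.11 at 3 h, 0.18 at 6 h and 0.33 at 24 h, stimulated ATMWT cells -0.07 at 6 h, and untreated cells -0.89 (ATMKO) and -0.91 (ATMWT). The 3 h sample was the highest of all 16, and the lines and untreated cells overlapped. Pde3b was lower in the lines than in anti-IgM cells by -1.61 ± 0.38 (SE, limma adjusted p = 0.00303), and by -1.12 (adjusted p = 0.00923) without the 3 h sample. Within slides 2, 3 and 4 the difference from anti-IgM cells was -1.41, -1.76 and -1.24, and it missed the test on slide 3 (adjusted p = 0.136). Against untreated cells it differed by -0.08 ± 0.49 (adjusted p = 0.924). The dim probe A_55_P2151591 gave -1.04 ± 0.15 against anti-IgM cells (adjusted p = 7.15e-05).

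Pde7a, known for its part in T cell activation, passed the test in none of the 3 comparisons of the lines. The lines read -0.71 at the lowest, -0.35 at the median and 0.24 at the highest, and GC cells 0.01. Stimulated ATMKO cells read 1.18 at 3 h, -0.23 at 6 h and 0.26 at 24 h, stimulated ATMWT cells -0.18 at 6 h, and untreated cells 0.69 (ATMKO) and 0.30 (ATMWT). All lines lay below both untreated samples and overlapped the stimulated ones. The difference of -0.81 ± 0.32 (SE) from untreated cells did not pass (limma adjusted p = 0.0608). It passed without line 1019 (adjusted p = 0.0408), without line 1039 (adjusted p = 0.0467) and with the slide as a block (adjusted p = 0.0122). The difference of -0.57 from anti-IgM cells did not pass either (limma adjusted p = 0.07). It passed in 5 of 28 alternatives, among them the slide as a block (-0.56, adjusted p = 0.0336).

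**Figure D2:**
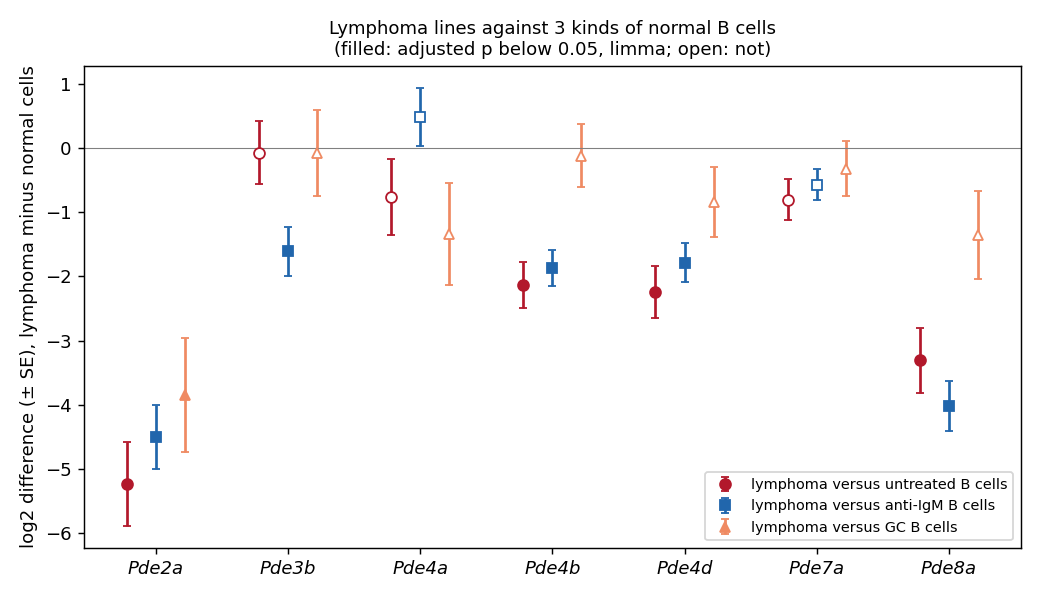
Log2 difference of lymphoma lines minus normal cells with its SE (vertical axis) for each gene (horizontal axis), against untreated, anti-IgM-stimulated and GC B cells. Filled points passed the test and open points did not. Pde2a is filled in all 3 comparisons, from -5.23 to -3.85, and Pde4a and Pde7a are open in all 3.

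Counted together, 4 of 7 members were lower in lymphoma than in untreated cells and 0 were higher, where 21.1% of the 21434 genes tested were lower and 14.7% higher. The median difference was -2.14 for the members and -0.01 for all genes. Against anti-IgM cells 5 of 7 were lower and 0 higher (24.8% of genes lower, 21.2% higher), with medians of -1.79 and 0.00. Against GC cells 1 of 7 was lower and 0 higher (5.37% of genes lower, 4.41% higher), with medians of -0.84 and -0.04. More than 1 gene in 5 was called lower against untreated and against anti-IgM cells, so a call by itself is common there.

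Markers of other cells also differed between the lines and untreated splenic cells. Untreated splenic cells carried macrophage, neutrophil, T cell and erythroid marker RNA that the lines had little of. The sample medians of the 8 macrophage markers were -1.99 to -1.11 in lymphoma, -1.27 in GC cells, -0.68 to 0.37 in stimulated cells and 0.85 to 1.31 in untreated cells, and 7 of 8 markers were lower in lymphoma than in untreated cells, with C1qa above background on no lymphoma array. The 7 neutrophil markers stood at -5.55 to -3.22 in lymphoma, -3.76 in GC cells, 0.44 to 1.62 in stimulated cells and 1.33 to 1.43 in untreated cells, and 7 of 7 were lower. Of the 9 T cell markers 6 were lower and 1 higher, with medians of -2.36 to -0.45 in lymphoma and 0.60 to 0.70 in untreated cells. The part of such cells in the members' differences from splenic cells was not tested. Without their first array GC cells had medians of -1.86 for the macrophage and -5.60 for the neutrophil list, and without both arrays that stood apart Pde2a in the lines differed from GC cells by -3.83. B cell markers were above background in all groups, at -0.39 to 0.55 in lymphoma, -0.88 to -0.05 in stimulated cells and 0.43 to 0.48 in untreated cells. Of the 8 B cell markers 2 were lower and 1 higher in lymphoma than in untreated cells.

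GC B cells were also compared with untreated splenic B cells, as 1 averaged sample, assumed to vary like the other groups, against 2. Pde4b was lower by -2.01 ± 0.57 (SE, limma adjusted p = 0.0337) by its brightest probe, and the call was lost without the ATMKO untreated sample (-1.59, adjusted p = 0.184). Its second probe, A_52_P423247, gave -0.82 ± 0.57 and did not pass (adjusted p = 0.422, every probe tested). Pde8a differed by -1.95 ± 0.80 (adjusted p = 0.136) with all 3 GC arrays and was lower by -2.78 (adjusted p = 0.0257) without the first. Pde4d differed by -1.40, Pde2a by -1.38, Pde7a by -0.48, Pde4a by 0.59 and Pde3b by 0.01, and none of these passed. Thus 1 of 7 members was lower and 0 higher, where 6.92% of genes were lower and 4.62% higher. The median was -1.38 over the members and -0.02 over all genes.

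In ATMKO cells, Pde2a, Pde3b, Pde4b, Pde4d, Pde7a and Pde8a read highest after 3 h of anti-IgM and Pde4a read lowest then. The share of all genes that read highest in this 3 h sample was not measured, so nothing particular to the members is read from it. Pde4a was low at 3 and 6 h (-1.86 and -1.28 in ATMKO cells, against 0.0006 untreated) and stood at 0.19 at 24 h, and at 6 h ATMWT cells read -1.37, against 0.32 untreated. Pde3b stood at 2.11 at 3 h, against -0.89 untreated, and at 0.33 at 24 h. Pde2a was higher at 3 h (1.64) than at 6 h (-0.45), and Pde4b at 3 h (1.30) hardly exceeded its untreated value (1.26). Each time is 1 sample, so these courses have no replicate of their own and no test compares them. Both genotypes moved the same way at 6 h for Pde2a, Pde3b, Pde4a, Pde4b, Pde4d, Pde7a and Pde8a.

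**Figure D3:**
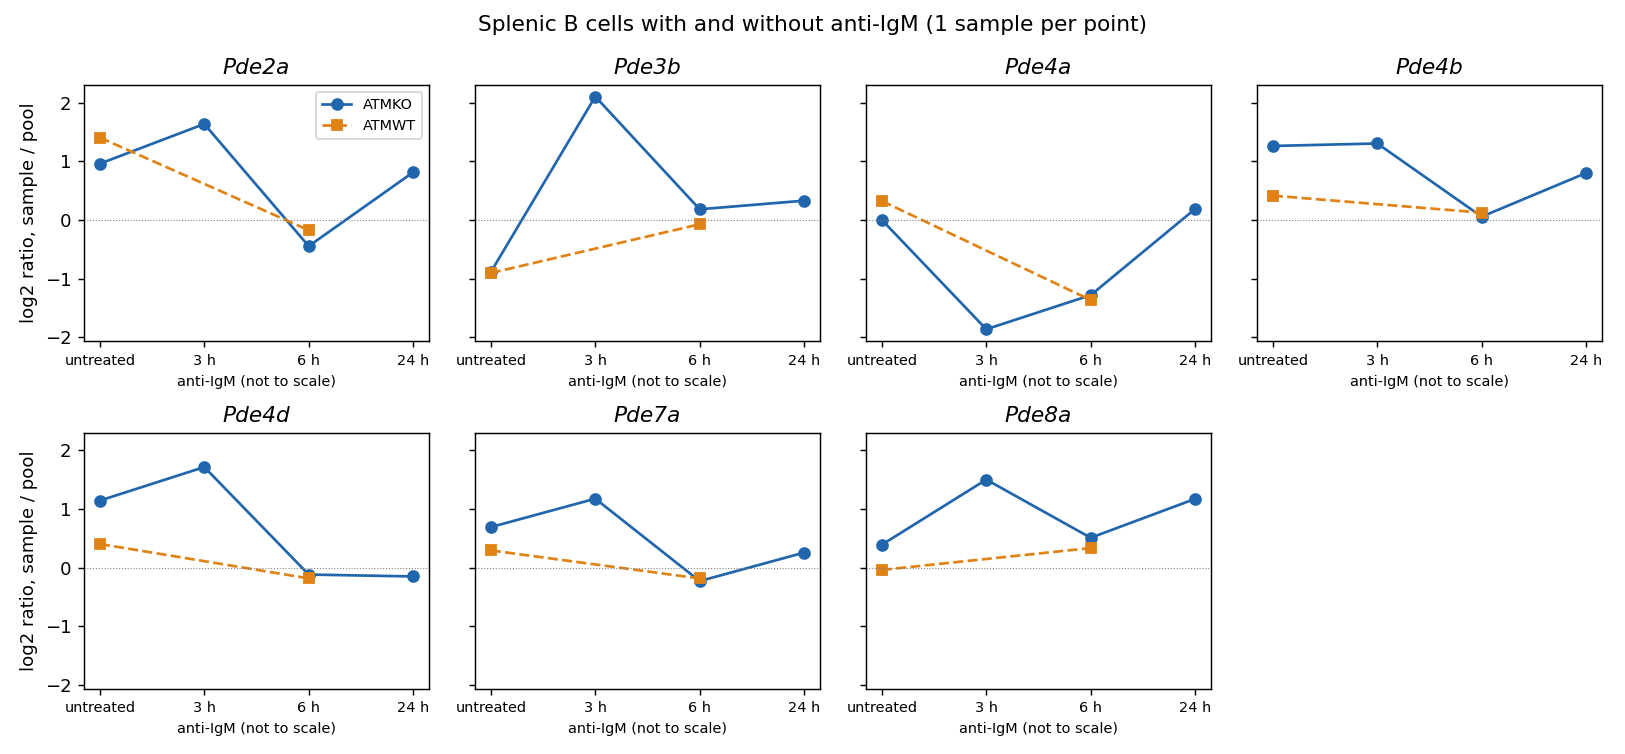
Log2 ratio to the pool (vertical axis) in untreated splenic B cells and after 3, 6 or 24 h of anti-IgM (horizontal axis, not to scale), for ATMKO (circles) and ATMWT (squares) cells, 1 sample per point. Pde4a is lowest at 3 h (-1.86) and Pde3b highest at 3 h (2.11).

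In the fit of all stimulated against untreated samples, with genotype as a term and 3 residual degrees of freedom, no member passed and neither did any other gene (limma, 0% higher and 0% lower of 22319 genes, with 1684 genes at an unadjusted p below 0.05). The largest member differences were 1.39 ± 0.64 (SE) for Pde3b (adjusted p = 0.705), -1.27 ± 0.62 for Pde4a (adjusted p = 0.729) and -0.81 ± 0.66 for Pde2a (adjusted p = 0.87). The other 4 lay between -0.63 and 0.55. The same fit gave no call between ATMKO and ATMWT cells (0% higher and 0% lower, with 128 genes at an unadjusted p below 0.05), and the member differences ran from 0.10 for Pde4a to 0.70 for Pde4b. Both ATMWT splenic samples lay on slide 2, so genotype and slide can hardly be told apart. Sample medians of NK cell, macrophage, T cell, erythroid, stromal, B cell and GC B cell markers also stood lower after anti-IgM than before it. NK cell markers read -0.82 to 0.73, against 1.25 to 1.52, and B cell markers -0.88 to -0.05, against 0.43 to 0.48. Neutrophil markers (0.44 to 1.62, against 1.33 to 1.43) and platelet markers (-0.08 to 0.92, against 0.05 to 0.11) stood higher in some stimulated samples, the neutrophil ones at 3 h. The part of cells other than B cells was not tested.

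**Figure D4:**
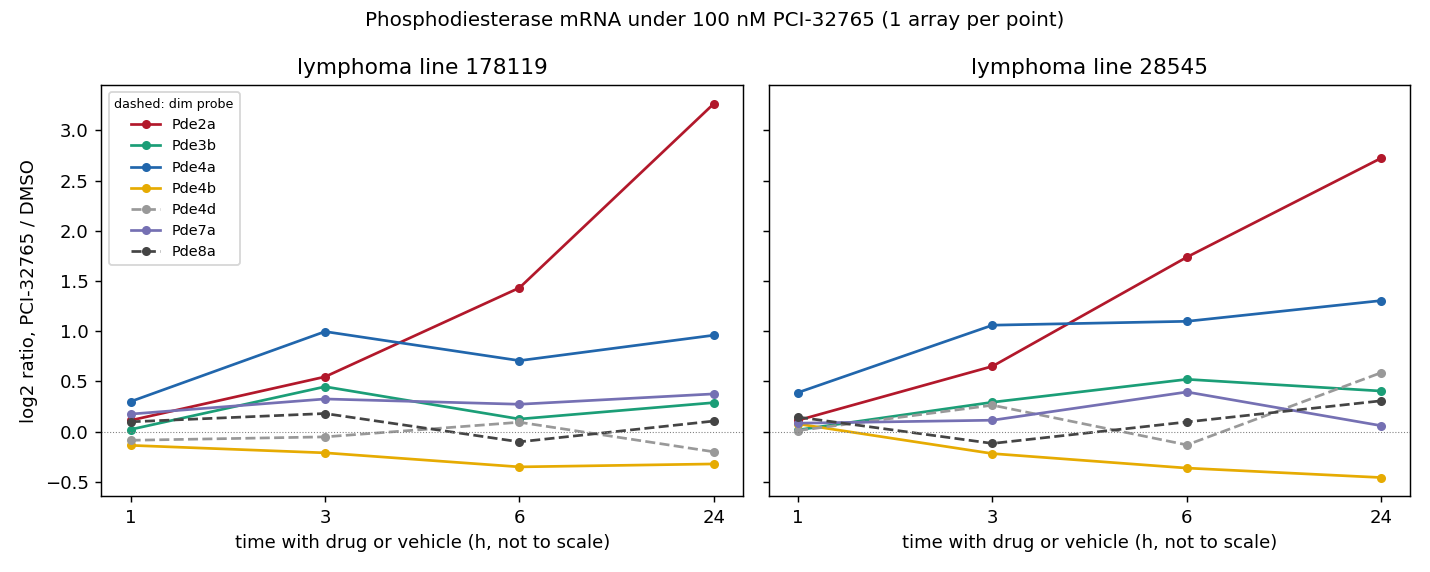
Log2 ratio of PCI-32765 over DMSO (vertical axis) by time (horizontal axis, not to scale) in lymphoma lines 178119 and 28545, 1 array per point, with probes near background dashed. Pde2a climbs to 3.27 and 2.73 at 24 h, while Pde4a is already at 1.00 and 1.06 at 3 h.

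PCI-32765 blocks BTK, the kinase that passes on B cell receptor signals. Values are log2 ratios of PCI-32765 over DMSO, and those of Pde2a and Pde4a are what the group was chosen for. Pde2a stood at 0.11, 0.55, 1.43 and 3.27 at 1, 3, 6 and 24 h in line 178119 and at 0.11, 0.65, 1.74 and 2.73 in line 28545. It was near 0 at 1 h in both lines, higher at each later time, and 9.63-fold and 6.61-fold higher at 24 h. By mean ratio over the 8 arrays it ranked first of 17951 genes.

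Pde4a had a different course. It stood at 0.30, 1.00, 0.71 and 0.96 in line 178119 and at 0.39, 1.06, 1.1 and 1.30 in line 28545 at the same times. It was already above 0 at 1 h, and from 3 h on it stayed between 0.71 and 1.30. The second probe read 0.26, 0.85, 0.41 and 0.53 in line 178119 and 0.29, 0.92, 0.56 and 0.85 in line 28545, lower than the first probe on all 8 arrays. By the mean of its first probe Pde4a ranked 21 of 17951 genes.

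The remaining members moved little. Pde3b lay between 0.02 and 0.52 and Pde7a between 0.06 and 0.39, above 0 on all 8 arrays each, although their second probes were above 0 on 6 and 4 of 8. Pde4b ran the other way, at -0.14, -0.21, -0.35 and -0.32 in line 178119 and 0.08, -0.22, -0.36 and -0.46 in line 28545, and its other bright probes averaged -0.24 and -0.30. Pde4d and Pde8a were above background with the drug on only 2 and 3 of 8 arrays and averaged 0.06 and 0.09. Above 0 on all 8 arrays were thus 4 members (6.81% of genes) and below 0 on all 8 were 0 members (5.35% of genes), and since these arrays chose the group, nothing is read from that count.

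The drug values rest on 1 dye orientation, so a dye effect cannot be told apart from the drug. The array of line 28545 at 24 h had 85.5% of probes above background in Cy5, against 45.6% to 53.0% on the others, and without it Pde2a averaged 1.12 instead of 1.32 and Pde4a 0.79 instead of 0.85. With centring on the array median in place of loess the median of all genes moved to 0.42, and relative to it Pde2a averaged 1.43, Pde4a 1.02, Pde7a 0.38, Pde3b 0.45 and Pde4b -0.16, while the Pde4b mean with that centring was itself 0.26, the opposite sign. Lines 178119 and 28545 differed little in their means (Pde2a 1.34 and 1.31, Pde4a 0.74 and 0.96).

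Set side by side, Pde4a was low after 3 and 6 h of anti-IgM but not at 24 h (0.19), and higher under the inhibitor from 3 h. Pde2a was low in the untreated lymphoma lines and higher under the inhibitor at 6 and 24 h. In ATMKO cells it read 1.64 after 3 h of anti-IgM, against 0.96 untreated. Pde3b stood above its untreated value after anti-IgM in ATMKO cells and, by its brightest probe, above 0 on all 8 drug arrays. The drug values of Pde2a and Pde4a are those that chose the group. Other lines and cells carry these values, and their relation was not tested.

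Members also differed in which others they followed across the 16 pool samples, where points share the pool and the group structure. Pde2a followed Pde8a (r = 0.91), Pde4b (r = 0.91) and Pde4d (r = 0.88), and within the 9 lines alone r was 0.48, 0.82 and 0.10. Without both arrays that stood apart r was 0.90, 0.91 and 0.86 over the 16 samples and 0.25, 0.74 and -0.39 within the lines, so the values within the lines rest in part on 1 array. Pde4a followed none, with r between -0.46 (Pde3b) and 0.04 (Pde2a). Of all genes tested, those closest to Pde2a were Nuak2 (r = 0.98), a kinase of the AMPK family, Itsn2 (r = 0.97) and Apobr (r = 0.97). Closest to Pde8a were Mefv, the pyrin gene (r = 0.99), Zswim6 (r = 0.98) and the death receptor gene Tnfrsf25 (r = 0.98), and closest to Pde4b were the splicing kinase gene Clk1 (r = 0.97), Tecpr1 and Smurf2 (r = 0.96 each). Pde4a was closest to Phf14 (r = 0.91) and to 2 noncoding or unnamed transcripts (r = 0.90 and 0.88), and this r was 0.89 within the 9 lines for Phf14. Pde3b was closest to Abraxas2 (r = 0.92), Ddx46 and Cacul1, Pde4d to an unnamed probe (r = 0.97), Amz1 and the prostaglandin synthase gene Ptgs2, and Pde7a to 2 unnamed transcripts (r = 0.90 and 0.89) and 5830469G19Rik. These are descriptions over 16 samples with all arrays. Without both arrays r was 0.96 for Nuak2, 0.98 for Itsn2 and 0.96 for Apobr with Pde2a, and 0.91 for Phf14 with Pde4a.

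The rest of the cyclic nucleotide pathway, 86 genes in 7 lists, had 61 genes tested. Of these 7 were higher and 20 lower in lymphoma than in untreated cells, where 14.7% of all genes were higher and 21.1% lower, with a median of -0.11. Among the other genes with a phosphodiesterase name 1 of 11 was higher (Pde5a, the cGMP enzyme that sildenafil blocks) and 3 were lower, with a median of 0.15. Of 5 adenylyl cyclases tested, 3 were lower, led by Adcy7, an abundant cyclase of blood cells (-1.92 ± 0.34, SE, limma adjusted p = 0.000528).

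Other steps held genes that were higher in the lines. Gnaz, whose G protein inhibits adenylyl cyclase, was higher than in untreated cells by 4.10 ± 0.42 (SE, limma adjusted p = 5.36e-06), Rapgef3, which encodes EPAC1, by 3.45 ± 0.67 (adjusted p = 0.00107) and Pkig, a PKA inhibitor, by 1.77 ± 0.18 (adjusted p = 4.51e-06). Arrb1 (beta-arrestin 1) was lower by -3.72 ± 0.57 (adjusted p = 0.000152). Per list, PKA subunits and inhibitors had 2 higher and 2 lower of 8, EPAC, CREB and CRTC genes 2 higher and 5 lower of 9, Gs-coupled receptors and G proteins 1 higher and 3 lower of 11, anchoring proteins 0 higher and 4 lower of 13, and guanylyl cyclases and PKG 1 higher and 0 lower of 4.

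Against anti-IgM cells 11 of 61 pathway genes were higher and 21 lower (21.2% of all genes higher, 24.8% lower). Gnaz (3.96), Rapgef3 (3.46) and Pkig (2.31) were again the largest differences upward, and Arrb1 (-3.06), the CREB-family gene Crem (-2.68) and Adcy6 (-1.79) downward. Against GC cells 4 were higher, led by Gnaz (2.11), the prostaglandin E2 receptor gene Ptger4 (1.97) and Akap9 (1.33), and 3 lower, Pde6g (-2.004), Gnai2 (-1.33) and Adcy3 (-0.71), where 4.41% of all genes were higher and 5.37% lower. Without both arrays that stood apart these counts were 6 and 6 (6.84% and 8.62% of all genes), and Gnaz (2.53), Ptger4 (2.57), Akap9 (0.96), Pde6g (-2.31), Gnai2 (-1.67) and Adcy3 (-0.74) passed there too. In GC against untreated cells 2 were higher, Pkig (1.66) and Pde5a (1.07), and 4 lower, among them Arrb1 (-3.45) and Adcy9 (-2.61), where 4.62% of all genes were higher and 6.92% lower. Without both arrays 4 were higher, Pkig (1.37) and Pde5a (1.30) among them, and 8 lower, including Arrb1 (-3.45) and Adcy9 (-2.61), with 6.79% of all genes higher and 10.4% lower. Anti-IgM and genotype gave no call among 62 pathway genes tested.

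Under PCI-32765, 6 of 49 measured pathway genes were above 0 and 5 below 0 on all 8 arrays, as were 6.81% and 5.35% of all genes. Ptger4 had the largest mean of these (-0.99), and Akap12, a PKA anchoring gene, averaged 0.56. Akap13 averaged 0.42, Prkacb, a PKA catalytic subunit gene, 0.30, and Creb1 -0.24.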

How the data were processed

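RNA was hybridised to 32 Agilent 2-colour arrays. Per the file headers, Feature Extraction 10.1.1.1 wrote the deposited scanner files, whose spot and local background values are intensity on a linear scale. The submitters' processing notes name version 9.1 and limma. The deposited series matrix holds log10 ratios of Cy5 over Cy3, which equalled the scanner's within 0.0005 where both channels were above background (column medians -0.094 to 0.058, so not centred).

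Background was removed with normexp (offset 50) and dyes were balanced with loess within each array, both from limma 3.58.1 in R 4.3.3, which gave log2 ratios, with control and outlier spots at weight 0. Technical repeats were averaged, and so were the 3 GC arrays, as the series does not say which is the biological repeat. A probe was kept where Cy5 or Cy3 was well above background on 0.5 or more of a fit's arrays, and a gene was read by its brightest probe. Groups were compared with limma in 1 fit of 16 samples (12 residual degrees of freedom) and splenic cells in a fit of 6 samples (3 residual degrees of freedom), with Benjamini-Hochberg adjustment over all genes at 0.05. The fit was tested on simulated data with known changes. Slides were fitted as a block with duplicateCorrelation (statmod 1.5.0) and 1 by 1. Other alternatives were the scanner's processed signals, the deposited ratios, median centring, no filter on dim probes, each probe on its own, first repeats, the compared groups alone and leaving out arrays or samples. The number of arrays limits the precision.

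The members, lists and tests were chosen with earlier results of these data known. All 7 members are named, the pathway genes with up to 3 per direction and comparison by size among those that passed, and the 3 genes most like each member by Pearson's r. A pathway gene that this rule names is not reported here. The 5 pathway genes named under the drug were picked after their values were seen. Symbols were updated through RefSeq accessions for 27235 of 55681 probes. Other software was Python 3.11.15, the R package data.table (1.17.8), numpy 2.4.6, pandas 2.3.3 and, for plots, matplotlib 3.10.9.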

Additional observations from a re-analysis of the deposited data

How the results depend on the processing

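Differences of Pde2a, Pde4b, Pde4d and Pde8a from untreated and from anti-IgM cells kept their direction in every alternative that measured them. Read by the brightest probes, the calls against untreated cells were lost only within slide 3. Those against anti-IgM cells were lost only within slide 3 (Pde4b, Pde4d, Pde8a) or slide 4 (Pde2a). On its own, the Pde4b probe A_55_P2107542 passed neither against untreated cells (-1.03, limma adjusted p = 0.105) nor against anti-IgM cells (-0.15, adjusted p = 0.756). Slide 3 holds 1 untreated sample and 5 lines, and line 1039 is read there only by its first array, which stood apart. The members called against untreated cells numbered 4 to 5 without single samples. Against anti-IgM cells they numbered 1 within slide 3 and 5 to 6 without single samples. Against GC cells they numbered 2 without the first array of line 1039, 4 within slide 2 (whose GC array is the one that stood apart) and 0 within slide 4, and 1 to 2 without single samples. In GC against untreated cells they numbered 0 with median centring (Pde4b -1.76, adjusted p = 0.0526), 0 with first repeats only, with the slide as a block and within slide 2, where Pde4b, the called gene, was not measured and 6 members were tested, 2 without the first GC array and without both arrays that stood apart, 3 within slide 4 and 4 with only these groups fitted, and 0 to 1 without single samples.

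For the counts of members called above, the share of all genes called also changes with the setting and is not given for each. Nothing about the members is read from those counts. The differences that changed sign had not passed the test. For Pde3b against GC cells the difference was 0.28 without the first GC array, 0.26 without both arrays, 0.52 within slide 4 and up to 0.0554 without single samples. For Pde3b in GC against untreated cells it was -0.36 without the first GC array or both, -0.46 within slide 4 and -0.0024 to 0.0145 without single samples. Pde3b against untreated cells read 0.29 within slide 3, 0.0557 within slide 4 and -0.191 to 0.0615 without single samples, and Pde4a read 0.17 within slide 4. Pde4a in GC against untreated cells read -0.20 within slide 2, and Pde4d after anti-IgM 0.0263 within slide 3. Between genotypes and without single samples, Pde2a read -0.4448 to 0.8424 and Pde4a -0.3233 to 0.3804, the lowest of each without the ATMWT 6 h sample, and Pde4a read -0.2568 without the ATMKO 24 h sample. Pde4d between genotypes read -0.0585 with the slide as a block. The cause was not tested. Leaving out both arrays together was chosen after seeing the data. No paired analysis was possible because the labels give no replicate numbers that groups share.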
